A study of Rattus norvegicus with 64 samples.

Results

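The genes described here copy the chromosomes of a dividing cell and share the copies between its daughter cells. They were chosen by symbol from a list of 49 DNA replication and mitosis genes, of which 48 were found among the 17260 genes of the count tables. The list was drawn up with earlier results of these data known, so the counts of members called are not an independent test. E2f8 was not analysed here. All 48 passed the filter on low counts and were among the 12521 genes tested. RNA came from the medial (MEC) and the lateral (LEC) entorhinal cortex of Long Evans rats at P2, P9, P23, and P45 (postnatal age in days). Each region was separated by hand under a dissection microscope into layer II (LII) and layers III to VI together (LDeep), so each library held every cell type of its piece of tissue. Each of the 16 groups of age, region, and layer had 5 libraries at P2, 3 at P23, and 4 at each of the other ages, 64 in all. Levels are given as counts per 1000000 counted read pairs (CPM), with library sizes scaled by TMM factors, and differences between groups as log2 fold changes (LFC) with the standard error (SE) and the p-value adjusted over all tested genes (edgeR, quasi-likelihood test, threshold 0.05).

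Between 3894334 and 11439143 read pairs were counted per library, and 1 count stood for 0.0895 to 0.253 CPM after the scaling. The weakest members were near this limit at the later ages, and their values there carry a large counting error. The study calls its replicates biological, but the labels do not say whether libraries that share a replicate number came from the same animal, and all p-values treat the libraries as separate. If such libraries share an animal, the p-values of the age comparisons may be too small. In 3 MEC libraries of P2, markers of the meninges went against the layer label. The summed level of 9 meningeal fibroblast genes was 28.4 and 47.7 CPM in replicates 1 and 3 of MEC LII, where the other 8 LII libraries of P2 had 784 to 1533 CPM. It was 1139 CPM in replicate 1 of MEC LDeep, where the other 9 LDeep libraries of P2 had 28.7 to 92.7 CPM. Replicate 1 of MEC LII also held the highest P2 level of 17 of the 48 members. The share of all genes for which this library was the highest is not given. The kinase gene Aurkb stood at 101 CPM there, against 7.77 to 14.6 CPM in the 4 other libraries of the group. The cytokinesis gene Prc1 stood at 99.9 CPM, against 24.6 to 27.1 CPM. Pax6, Nes, and Dlx2, markers of progenitors or immature neurons, were also above the 4 others of the group, at 21.4, 50.1, and 15.6 CPM. Over all P2 libraries, Pax6 and Dlx2 were higher elsewhere, at up to 24.1 and 16.2 CPM. Sox11, another marker of immature neurons, was below the 4 others of the group, at 116 CPM. Other progenitor and immature neuron markers are not given for this library, so these genes do not describe the lists as a whole. Without replicate 1 of MEC LII, 22 members were again called higher in LII over the combined ages, with an LFC of LII over LDeep of 0.68 for Aurkb and 0.59 for Prc1 in place of 0.84 and 0.66, and further values without these libraries stand beside the results on layer and region.

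Before a cell divides, the Mcm helicase is loaded on replication origins in G1 phase, DNA is copied in S phase, and cyclin B with Cdk1 starts mitosis, in which the spindle pulls the chromosomes apart. E2F factors switch on the replication genes late in G1, and the complex of B-Myb and MuvB together with Foxm1 switches on the mitosis genes in G2. In the rodent cortex most neurons are born before birth, while glial precursors and cells of vessels and meninges go on dividing after it, so proliferation genes are commonly used there as a mark of cycling cells.

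The promoters of the members that fell most and least with age are printed because the members fell together and the binding motifs of these regulators are known. RefSeq promoters of the GRCr8 build, from 250 bases before to 50 after the start of the gene, were at hand for 37 of the 49 listed members. Each was searched on both strands for 4 forms of the E2F site (TTTCCCGC, TTTGGCGC, TTTCGCGC, and TTTGCCGC), for the cell cycle homology region CHR (TTTGAA), and for the CCAAT box (CCAAT). Capitals mark the matches, matches on the other strand included. Overlapping matches run together and occurred in 7 of the 37. An E2F site was found in 29.7% of the 37 and in 2.14% of all 33469 promoters of the table. The CHR was found in 48.6% against 18.3%, the CCAAT box in 78.4% against 37.5%, and both in the same promoter in 43.2% against 7.41%. Among the 12 promoters of licensing and DNA synthesis genes, 9 held an E2F site, 1 held the CHR, and 9 the CCAAT box. Among the other 25 promoters these were 2, 17, and 20. A match is a description of the letters in this window and not evidence of binding. Among the members with a promoter entry, the first 3 sequences are those of the mitosis-related members with the largest fall with age, the next 3 those of the licensing members with the largest fall, and the last pair those of the members with the smallest fall. They lie at chr13:103760837-103761136 (minus strand) for Cenpf, chr20:19265043-19265342 (plus strand) for Cdk1, chr10:84473044-84473343 (minus strand) for Top2a, chr19:13488563-13488862 (plus strand) for Mcm5, chr9:30733697-30733996 (minus strand) for Mcm3, chr19:67528999-67529298 (plus strand) for Cdt1, chr3:139955771-139956070 (minus strand) for Pcna, and chr10:25665166-25665465 (minus strand) for Hmmr.
Cenpf: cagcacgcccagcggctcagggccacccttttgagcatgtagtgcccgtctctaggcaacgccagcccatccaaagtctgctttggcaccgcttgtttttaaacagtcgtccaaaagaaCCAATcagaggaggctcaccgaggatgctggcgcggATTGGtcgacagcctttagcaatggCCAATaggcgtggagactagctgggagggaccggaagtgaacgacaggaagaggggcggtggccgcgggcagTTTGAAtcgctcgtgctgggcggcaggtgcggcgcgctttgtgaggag
Cdk1: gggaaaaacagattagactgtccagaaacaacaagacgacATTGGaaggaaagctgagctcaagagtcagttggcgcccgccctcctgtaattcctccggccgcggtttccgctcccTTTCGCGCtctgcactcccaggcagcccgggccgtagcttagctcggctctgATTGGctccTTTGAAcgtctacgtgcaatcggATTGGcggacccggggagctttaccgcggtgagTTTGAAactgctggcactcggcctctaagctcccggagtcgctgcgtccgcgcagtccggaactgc
Top2a: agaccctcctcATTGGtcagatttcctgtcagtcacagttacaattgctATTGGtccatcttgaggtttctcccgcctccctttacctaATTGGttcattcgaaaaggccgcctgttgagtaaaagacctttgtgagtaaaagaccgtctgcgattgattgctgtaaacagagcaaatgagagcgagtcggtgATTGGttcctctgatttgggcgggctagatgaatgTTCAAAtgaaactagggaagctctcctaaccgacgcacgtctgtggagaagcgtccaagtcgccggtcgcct
Mcm5: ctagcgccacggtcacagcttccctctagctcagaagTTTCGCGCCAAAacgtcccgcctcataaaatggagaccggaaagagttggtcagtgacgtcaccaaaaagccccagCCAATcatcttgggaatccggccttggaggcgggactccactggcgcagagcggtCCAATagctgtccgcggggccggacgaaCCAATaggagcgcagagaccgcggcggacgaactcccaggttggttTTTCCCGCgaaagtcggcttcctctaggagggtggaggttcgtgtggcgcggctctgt
Mcm3: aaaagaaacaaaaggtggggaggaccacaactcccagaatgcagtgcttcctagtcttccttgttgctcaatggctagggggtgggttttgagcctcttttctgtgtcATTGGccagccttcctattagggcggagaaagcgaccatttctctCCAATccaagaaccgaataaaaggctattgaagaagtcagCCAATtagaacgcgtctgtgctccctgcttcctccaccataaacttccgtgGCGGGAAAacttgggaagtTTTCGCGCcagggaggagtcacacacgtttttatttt
Cdt1: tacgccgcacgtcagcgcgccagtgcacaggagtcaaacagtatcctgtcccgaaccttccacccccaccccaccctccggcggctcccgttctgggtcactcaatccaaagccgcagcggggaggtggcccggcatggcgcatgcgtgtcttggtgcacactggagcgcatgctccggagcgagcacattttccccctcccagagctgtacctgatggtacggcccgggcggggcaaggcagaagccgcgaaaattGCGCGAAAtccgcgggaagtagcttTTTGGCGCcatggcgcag
Pcna: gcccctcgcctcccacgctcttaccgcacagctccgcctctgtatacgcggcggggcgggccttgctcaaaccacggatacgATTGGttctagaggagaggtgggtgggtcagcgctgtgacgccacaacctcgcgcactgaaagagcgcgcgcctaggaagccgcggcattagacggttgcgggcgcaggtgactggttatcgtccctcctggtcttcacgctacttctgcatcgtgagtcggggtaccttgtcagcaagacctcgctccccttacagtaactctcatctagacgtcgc
Hmmr: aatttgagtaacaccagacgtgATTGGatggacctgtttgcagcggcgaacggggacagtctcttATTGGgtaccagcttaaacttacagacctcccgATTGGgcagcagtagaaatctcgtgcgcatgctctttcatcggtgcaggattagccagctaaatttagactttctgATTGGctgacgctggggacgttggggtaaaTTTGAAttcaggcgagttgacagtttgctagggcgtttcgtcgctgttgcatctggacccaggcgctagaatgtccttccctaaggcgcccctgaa
The promoters of Cenpf, Cdk1, and Top2a each held a CHR and at least 3 CCAAT boxes, and that of Cdk1 also held an E2F site. Those of Mcm5, Mcm3, and Cdt1 held E2F sites and no CHR. Pcna held only a CCAAT box, while Hmmr held 4 CCAAT boxes and a CHR, the same elements as Cenpf and Top2a.

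The summed level of the 48 members was highest at P2 and lowest at P23 and P45. It was 868 CPM in the lowest, 1109.6 CPM in the median, and 1520.4 CPM in the highest of the 20 libraries of P2. At P9 it was 542, 731, and 953 CPM in 16 libraries. At P23 it was 265, 312, and 330.4 CPM in 12 libraries, and at P45 254, 305, and 340.0 CPM in 16. All libraries of P23 and P45 lay below all libraries of P2 and P9, while P23 and P45 overlapped. Every member had counts in every library of P2 and P9, and at least 45 of the 48 did in each library of P45. In bulk tissue, fewer cells that express a gene and less of its RNA per cell cannot be told apart. The map of every member in every library shows the drop between P9 and P23 as a change of color across most rows.

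**Figure D1:**
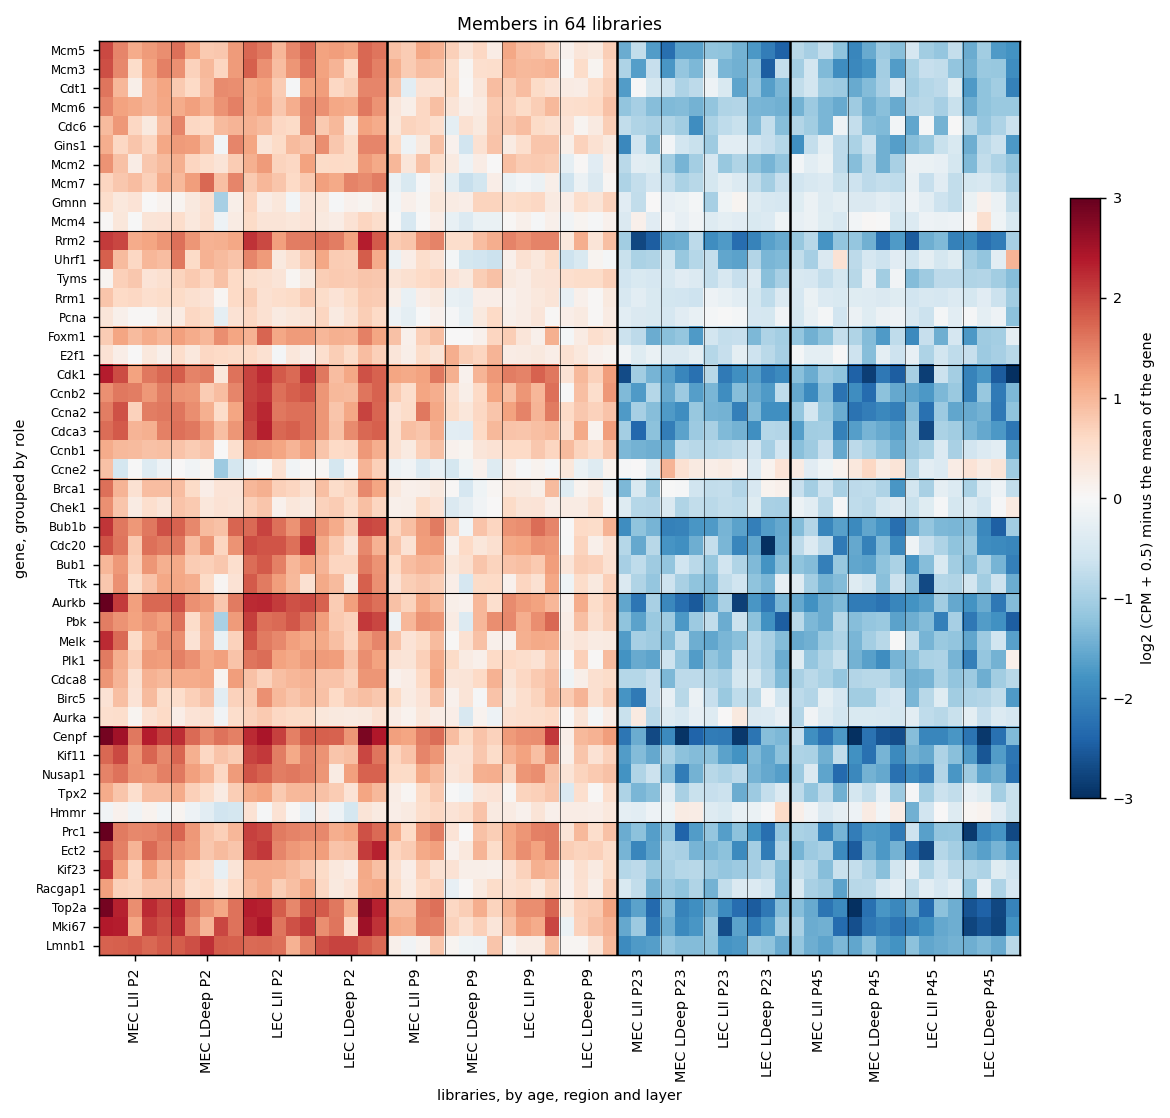
Level of each of the 48 members (rows, grouped by role) in each of the 64 libraries (columns, ordered by age, region, and layer), as log2 CPM relative to the mean of the gene over all libraries. Most rows change sign between the P9 and the P23 columns, and Ccne2 is the row whose age difference did not pass the test in the fit of all libraries.

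When the early ages (P2 and P9) were compared with the late ages (P23 and P45), weighting the 4 tissues equally, 47 of the 48 members were higher at the early ages, where 40.6% of all tested genes were. No member was lower, where 41% of all genes were. No unadjusted p-value under 0.05 was found for a lower member either. The median LFC was 2.14 over the members and -0.01 over all tested genes. The ranges of single libraries separated fully for 25 of the 48 members, with all 36 early libraries above all 28 late ones, which held for 3.82% of all tested genes. The level at P45, as a share of that at P2 (medians), was under 10% for 13 members, under 25% for 30, and above 50% for 5.

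Origin licensing and the replicative helicase took in 10 members, all of which were higher at the early ages, with a median LFC of 2.05. Mcm5 stood at 9.24, 13.9, and 22.1 CPM (lowest, median, and highest library) at P2, 5.75, 8.92, and 12.3 for P9, 0.564, 1.37, and 2.92 for P23, and 0.963, 2.12, and 3.54 in P45 libraries. The early-to-late LFC of Mcm5, a subunit of the ring-shaped Mcm helicase, was 2.73 ± 0.10 (SE, adjusted p = 2.56e-32), and its early and late libraries did not overlap. For Mcm7 the lowest, median, and highest library had 48.3, 63.2, and 106 CPM at P2, 19.5, 27.9, and 37.6 for P9, 15.3, 19.2, and 25.9 for P23, and 15.8, 20.1, and 27.0 for P45. Mcm7, another subunit of the same ring, had the highest level per length of the group at P2, with a median of 27.1 CPM per kb of exon. Its LFC was 1.11 ± 0.06 (SE, adjusted p = 8.38e-24), and all P2 libraries lay above all P9 libraries. Libraries of P2 held 33.2, 48.2, and 57.5 CPM of Mcm4 (lowest, median, and highest), those of P9 26.3, 36.3, and 42.8, those of P23 26.8, 29.5, and 41.4, and those of P45 25.4, 32.8, and 51.9. Mcm4 had the smallest change of the group, with an LFC of 0.35 ± 0.05 (SE, adjusted p = 2.28e-08), and overlapped between all ages. Subunits of the same hexamer thus ranged in LFC from 0.35 to 2.73, with Mcm2 at 1.48, Mcm6 at 2.16, and Mcm3 at 2.38. The loading factors Cdc6 and Cdt1 had LFCs of 2.12 and 2.38 at low levels, with medians of 3.79 and 3.77 CPM at P2 and 0.695 and 0.499 CPM at P45, and Cdt1 had 0 counts in 1 library of P45. Gmnn (geminin), the inhibitor of Cdt1, changed less, with an LFC of 0.67 ± 0.08 (SE, adjusted p = 1.46e-11), and its median went from 8.05 CPM at P2 to 5.27 CPM at P45. Gins1, a subunit of the GINS complex that activates the helicase, had an LFC of 1.98 ± 0.15 (SE, adjusted p = 1.26e-17).

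Of the 5 members that supply nucleotides or act at the replication fork, all were higher at the early ages, with a median LFC of 1.26. Pcna, the sliding clamp of the DNA polymerases, was the most abundant member per length at P2 and at P45, with medians of 65.1 and 41.7 CPM per kb. In P2 libraries, Pcna had a lowest, median, and highest level of 48.5, 75.6, and 97.1 CPM, which was 47.3, 63.995, and 87.8 by P9, 40.1, 46.2, and 57.7 by P23, and 24.5, 48.4, and 56.6 by P45. Its LFC was 0.56 ± 0.06 (SE, adjusted p = 1.82e-12), the smallest of the group, and its early and late libraries overlapped. The lowest, median, and highest level of Rrm2 was 8.20, 11.8, and 21.1 CPM in P2 libraries, 4.74, 7.95, and 11.4 in those of P9, 0.139, 0.835, and 1.94 in those of P23, and 0.253, 0.921, and 1.87 in those of P45. Rrm2, the small and cell cycle-regulated subunit of ribonucleotide reductase, fell far more, with an LFC of 3.53 ± 0.14 (SE, adjusted p = 3.34e-29) and no overlap between early and late libraries. The large subunit of the same enzyme, Rrm1, had an LFC of 0.81 ± 0.04 (SE, adjusted p = 1.25e-23), and its median went from 90.9 CPM at P2 to 44.9 CPM at P45. Tyms stood at 27.1, 41.6, and 48.3 CPM (lowest, median, and highest library) at P2, 30.3, 37.1, and 48.3 for P9, 10.6, 18.4, and 20.5 for P23, and 10.4, 14.6, and 24.3 in P45 libraries. Tyms, which makes thymidylate, had an LFC of 1.26 ± 0.06 (SE, adjusted p = 1.85e-27) without overlap of early and late libraries. Uhrf1, which brings the maintenance methyltransferase to newly copied DNA, had an LFC of 1.31 ± 0.13 (SE, adjusted p = 5.90e-14).

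Both transcription factors analysed were higher at the early ages. For Foxm1 the lowest, median, and highest library had 12.3, 16.04, and 24.9 CPM at P2, 6.77, 9.28, and 15.2 for P9, 1.82, 3.34, and 4.64 for P23, and 1.52, 2.99, and 5.73 for P45. Foxm1, an activator of G2 and mitosis genes, had an LFC of 1.99 ± 0.10 (SE, adjusted p = 6.40e-26). Libraries of P2 held 10.9, 16.3, and 22.4 CPM of E2f1 (lowest, median, and highest), those of P9 12.3, 14.8, and 25.1, those of P23 5.50, 8.36, and 10.6, and those of P45 4.47, 7.29, and 11.5. E2f1, an activator of replication genes, had an LFC of 1.03 ± 0.06 (SE, adjusted p = 2.95e-23). Early and late libraries did not overlap for Foxm1, and they overlapped for E2f1.

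Among the 6 cyclin and Cdk1 members, 5 were higher at the early ages and Ccne2 was the exception. In P2 libraries, Cdk1 had a lowest, median, and highest level of 5.86, 15.9, and 25.2 CPM, which was 4.95, 11.0, and 16.6 by P9, 0.279, 0.879, and 2.32 by P23, and 0, 0.878, and 2.73 by P45. Cdk1, the kinase that drives entry into mitosis, had an LFC of 3.73 ± 0.15 (SE, adjusted p = 6.84e-30), and 1 library of P45 held no count of it. Its early and late libraries did not overlap. Ccna2, a cyclin of S and G2 phase, had an LFC of 3.25 ± 0.12 (SE, adjusted p = 9.71e-31), and Cdca3, a trigger of mitotic entry, one of 3.13 ± 0.15 (SE, adjusted p = 3.56e-26). Ccnb2, a mitotic cyclin, had an LFC of 3.42 ± 0.14 (SE, adjusted p = 3.50e-29), but its record in the files is a single exon on chromosome 1 of rn6, so reads of a near-identical copy may be counted there. The lowest, median, and highest level of Ccnb1 was 9.70, 18.9, and 25.1 CPM in P2 libraries, 10.2, 14.9, and 19.1 in those of P9, 3.06, 5.19, and 6.34 in those of P23, and 2.98, 4.70, and 7.72 in those of P45. Ccnb1, the main partner of Cdk1 in mitosis, kept more of its level, with an LFC of 1.78 ± 0.08 (SE, adjusted p = 1.90e-28). Ccne2 stood at 2.48, 5.78, and 12.4 CPM (lowest, median, and highest library) at P2, 3.87, 5.34, and 7.45 for P9, 4.24, 6.59, and 12.4 for P23, and 2.52, 6.93, and 9.26 in P45 libraries. Ccne2, a cyclin of the entry into S phase, was not called, with an LFC of -0.16 ± 0.11 (SE, adjusted p = 0.163) and overlap between all ages. It was the only member with a negative LFC. Ccne2 was called lower at the early ages in MEC alone. The same held without the MEC libraries of P2 whose meningeal markers went against the layer label.

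The spindle checkpoint delays the separation of sister chromatids until every chromosome is attached, and its 4 members were all higher at the early ages, with a median LFC of 2.50. For Bub1b the lowest, median, and highest library had 6.84, 12.7, and 18.6 CPM at P2, 3.51, 7.44, and 13.3 for P9, 0.547, 0.845, and 1.39 for P23, and 0.290, 0.984, and 1.87 for P45. Bub1b, the BubR1 protein of the checkpoint complex, had the largest LFC of the group at 3.42 ± 0.13 (SE, adjusted p = 5.15e-31). Libraries of P2 held 6.84, 15.02, and 24.1 CPM of Cdc20 (lowest, median, and highest), those of P9 4.96, 8.05, and 13.4, those of P23 0.143, 1.399, and 2.82, and those of P45 0.756, 1.78, and 4.55. Cdc20, which the checkpoint holds back from activating the anaphase-promoting complex, had an LFC of 2.76 ± 0.12 (SE, adjusted p = 3.58e-27). Neither overlapped between early and late libraries. The kinases Bub1 and Ttk had LFCs of 2.24 and 1.88. The DNA damage response members were the kinase gene Chek1, with an LFC of 1.07 ± 0.08 (SE, adjusted p = 1.86e-17), and the repair gene Brca1, with an LFC of 1.18 ± 0.09 (SE, adjusted p = 3.18e-17), and both overlapped between early and late libraries.

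All 7 members among the mitotic kinases and the chromosomal passenger complex were higher at the early ages, with LFCs from 0.76 to 4.00. In P2 libraries, Aurkb had a lowest, median, and highest level of 5.403, 11.2, and 101 CPM, which was 3.36, 6.15, and 8.87 by P9, 0, 0.482, and 1.30 by P23, and 0.258, 0.563, and 1.19 by P45. Aurkb, the kinase of the passenger complex, had an LFC of 4.00 ± 0.22 (SE, adjusted p = 2.66e-23), without overlap of early and late libraries. The top P2 value was the library of MEC LII described above, and without it the LFC was 3.83. The lowest, median, and highest level of Aurka was 7.44, 11.2, and 14.2 CPM in P2 libraries, 5.59, 9.38, and 12.4 in those of P9, 4.37, 5.97, and 9.85 in those of P23, and 4.10, 5.52, and 7.38 in those of P45. Aurka, the sister kinase at the spindle poles, had the smallest LFC of the group at 0.76 ± 0.06 (SE, adjusted p = 5.92e-16) and overlapped between early and late libraries. Birc5 (survivin) and Cdca8 (borealin), the partners of Aurkb in the complex, had LFCs of 1.66 and 1.89. Cdca8 stood at 6.09, 11.998, and 15.1 CPM (lowest, median, and highest library) at P2, 5.19, 8.38, and 13.7 for P9, 1.94, 2.92, and 3.83 for P23, and 1.75, 2.59, and 3.05 in P45 libraries. The remaining kinases were Pbk at 3.33, Melk at 2.52, and Plk1, which acts from the centrosome to cytokinesis, at 2.42.

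In the spindle, kinetochore, and motor group all 5 members were higher at the early ages. For Cenpf the lowest, median, and highest library had 22.7, 34.7, and 66.9 CPM at P2, 10.2, 20.8, and 39.3 for P9, 0.690, 1.58, and 3.30 for P23, and 0.535, 1.69, and 5.17 for P45. Cenpf, a large protein of the outer kinetochore, had an LFC of 4.00 ± 0.14 (SE, adjusted p = 1.45e-32) and no overlap. Libraries of P2 held 15.1, 24.2, and 30.1 CPM of Tpx2 (lowest, median, and highest), those of P9 9.25, 16.7, and 22.9, those of P23 4.20, 7.01, and 10.001, and those of P45 4.38, 7.44, and 12.4. Tpx2, which activates Aurka on spindle microtubules, had an LFC of 1.45 ± 0.09 (SE, adjusted p = 6.05e-22) and overlapped. Kif11, the motor that pushes the spindle poles apart, had an LFC of 2.84, and Nusap1, which bundles spindle microtubules, one of 2.81. In P2 libraries, Hmmr had a lowest, median, and highest level of 7.89, 11.4, and 16.2 CPM, which was 13.2, 14.4, and 22.1 by P9, 8.58, 10.5, and 18.04 by P23, and 4.04, 10.9, and 14.3 by P45. Hmmr, known as a hyaluronan receptor and as a protein of the spindle, had an LFC of 0.31 ± 0.07 (SE, adjusted p = 1.30e-04), and its ages overlapped.

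The 4 cytokinesis members build the central spindle and the contractile ring, and all were higher at the early ages. The lowest, median, and highest level of Prc1 was 14.7, 25.4, and 99.9 CPM in P2 libraries, 8.79, 17.03, and 26.5 in those of P9, 1.26, 2.62, and 3.66 in those of P23, and 0.759, 2.33, and 5.56 in those of P45. Prc1, which cross-links the microtubules of the central spindle, had an LFC of 3.096 ± 0.14 (SE, adjusted p = 1.17e-27), or 3.01 without MEC LII P2 replicate 1, and its early and late libraries did not overlap. Ect2, which activates RhoA at the cleavage plane, had an LFC of 3.00 ± 0.13 (SE, adjusted p = 1.72e-27). The partners of the centralspindlin complex, Kif23 and Racgap1, had LFCs of 1.66 and 1.47. Racgap1 stood at 8.73, 12.5, and 17.1 CPM (lowest, median, and highest library) at P2, 5.87, 9.77, and 12.1 for P9, 2.31, 3.78, and 5.20 for P23, and 1.97, 4.41, and 5.86 in P45 libraries. Racgap1 did not overlap between early and late libraries, while Kif23 did.

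The last 3 members shape the chromosome and the nucleus. For Mki67 the lowest, median, and highest library had 21.7, 56.1, and 83.5 CPM at P2, 12.2, 27.6, and 57.3 for P9, 1.78, 4.03, and 6.48 for P23, and 1.64, 3.06, and 6.78 for P45. Mki67, which coats mitotic chromosomes and is the usual marker of cycling cells, had an LFC of 3.41 ± 0.13 (SE, adjusted p = 3.32e-30). Libraries of P2 held 35.99, 59.5, and 122 CPM of Top2a (lowest, median, and highest), those of P9 20.6, 33.1, and 55.9, those of P23 2.46, 3.91, and 6.34, and those of P45 1.07, 3.79, and 6.66. Top2a, which untangles the copied DNA strands, had an LFC of 3.60 ± 0.13 (SE, adjusted p = 9.53e-32). In P2 libraries, Lmnb1 had a lowest, median, and highest level of 73.2, 124, and 162 CPM, which was 31.8, 38.3, and 69.9 by P9, 9.07, 12.9, and 15.998 by P23, and 9.72, 12.5, and 19.5 by P45. Lmnb1, a B-type lamin of the nuclear envelope, had an LFC of 2.54 ± 0.08 (SE, adjusted p = 5.37e-35), was the member with the most CPM at P2, and came after Pcna in level per length, with a median of 58.0 CPM per kb. None of these 3 overlapped between early and late libraries. The plots of single members show that the late libraries of Mki67, Cdk1, Mcm5, and Lmnb1 lie apart from the early ones, and that those of Pcna, Hmmr, Ccne2, and E2f1 do not.

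**Figure D2:**
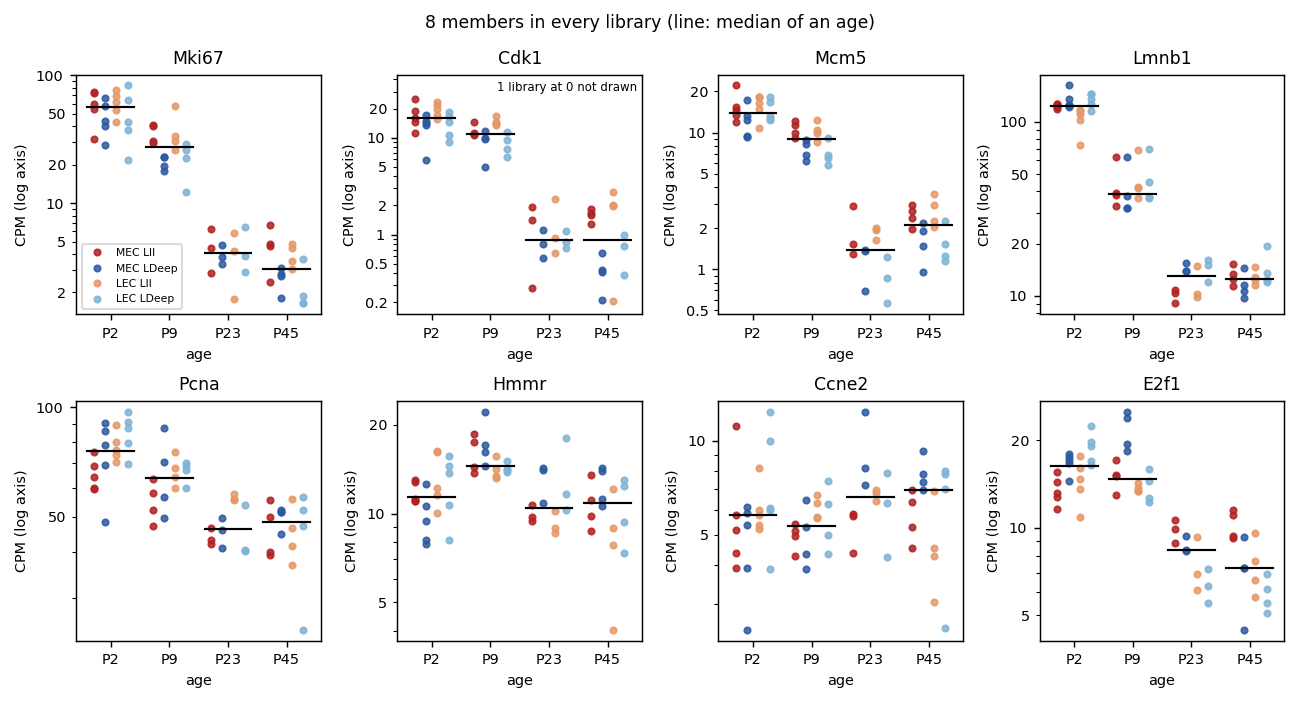
CPM (log axis) of 8 members in each library by age, colored by region and layer, with a line at the median of each age. Mki67, Cdk1, Mcm5, and Lmnb1 drop between P9 and P23 without overlap of early and late libraries, whereas the late libraries of Pcna, Hmmr, Ccne2, and E2f1 overlap with early ones.

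From P2 to P9, 42 members fell, where 31.8% of all genes did, and 1 rose, where 31.6% did. The median LFC of the step was -0.61 over the members and -0.00 over all genes. The largest falls were those of Lmnb1, with an LFC of -1.46 ± 0.09 (SE, adjusted p = 1.20e-19), and Mcm7, with an LFC of -1.27 ± 0.08 (SE, adjusted p = 2.36e-20). They were the only pair of members with all P2 libraries above all P9 libraries, which held for 1.46% of all genes. Hmmr rose, with an LFC of 0.39 ± 0.09 (SE, adjusted p = 3.21e-04). Gmnn, E2f1, Tyms, Birc5, and Ccne2 were not called in this step, with LFCs of 0.19, -0.00, -0.08, -0.19, and -0.17. The 4 libraries of P9 replicate 4, from both regions and layers, were above the 12 other P9 libraries for 3 members. Lmnb1 had 62.7 to 69.9 CPM in them and 31.8 to 45.4 CPM in the others. Mcm7 had 33.0 to 37.6 CPM against 19.5 to 31.0, and Mcm6 had 38.8 to 44.2 CPM against 24.9 to 37.6. No other replicate number of any age separated in this way for any member. The share of all tested genes for which P9 replicate 4 separated is not given, so its separation is not shown to be particular to the members. Without P9 replicate 4 the LFC of the step was -1.73 for Lmnb1, -1.43 for Mcm7, and -0.79 for Mcm6.

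From P9 to P23, 47 members fell, where 32.1% of all genes did, and none rose, where 32.5% did. No member had an unadjusted p-value under 0.05 in the upward direction. The median LFC was -1.84 over the members and 0.01 over all genes, and for 32 of the 48 members all P9 libraries lay above all P23 libraries, which held for 6.45% of all genes. Cenpf fell most, with an LFC of -3.58 ± 0.21 (SE, adjusted p = 1.28e-21), followed by Aurkb at -3.44, Cdk1 at -3.37, and Rrm2 at -3.31. The cyclin and Cdk1 group had a median LFC of -2.73 in this step, and the DNA damage pair one of -0.86. Ccne2 was the member not called, with an LFC of 0.31 ± 0.16 (SE, adjusted p = 0.0856). It was called as rising when the libraries of a replicate number were summed.

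The fall from P9 to P23 was compared with that from P2 to P9 by the difference of both LFCs, a contrast chosen after the steps had been seen. The fall was called larger from P9 to P23 for 39 members, where 22.7% of all genes were called with a negative difference. The median difference was -1.29 over the members and -0.00 over all genes. The difference was largest for Cdk1, at -2.83 ± 0.30 (SE, adjusted p = 2.84e-11). Mcm7 was the reverse, with a difference of 0.76 ± 0.14 (SE, adjusted p = 1.89e-05) and a larger fall from P2 to P9. A positive difference was called for 20.4% of all genes. The 8 members without a call were Lmnb1, Mcm4, Pcna, Rrm1, Uhrf1, Brca1, Aurka, and Ccne2, with differences from -0.37 for Lmnb1 to 0.47 for Ccne2. The ages are unequally spaced, so these are differences between sampled ages and not rates per day.

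From P23 to P45, 2 members rose, where 1.99% of all genes did, and none fell, where 1.86% did. In the downward direction 1 member had an unadjusted p-value under 0.05. The median LFC was -0.04 over the members and 0.01 over all genes. The lowest, median, and highest level of Uhrf1 was 8.86, 14.2, and 26.3 CPM in P2 libraries, 4.42, 7.23, and 10.7 in those of P9, 2.01, 3.54, and 4.72 in those of P23, and 2.87, 4.84, and 15.1 in those of P45. The LFC of Uhrf1 was 0.72 ± 0.20 (SE, adjusted p = 0.0208), and that of Mcm5 was 0.55 ± 0.16 (SE, adjusted p = 0.0383). The highest Uhrf1 level of P45, 15.1 CPM, was in LEC LDeep replicate 4, where the other 3 libraries of the group had 2.87 to 5.70 CPM. Without P45 replicate 4 the LFC of Uhrf1 was 0.42 with an adjusted p of 0.205 (edgeR), and the adjusted p of Mcm5 was 0.0663. Leaving out P23 replicate 2 or 3 also ended the call of Uhrf1 (adjusted p of 0.172 and 0.162), and 8 of the 16 fits without a replicate number ended that of Mcm5, with LFCs down to 0.45 without P23 replicate 3. The plot of the steps shows both of these above 0 among late steps that are otherwise spread around it.

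**Figure D3:**
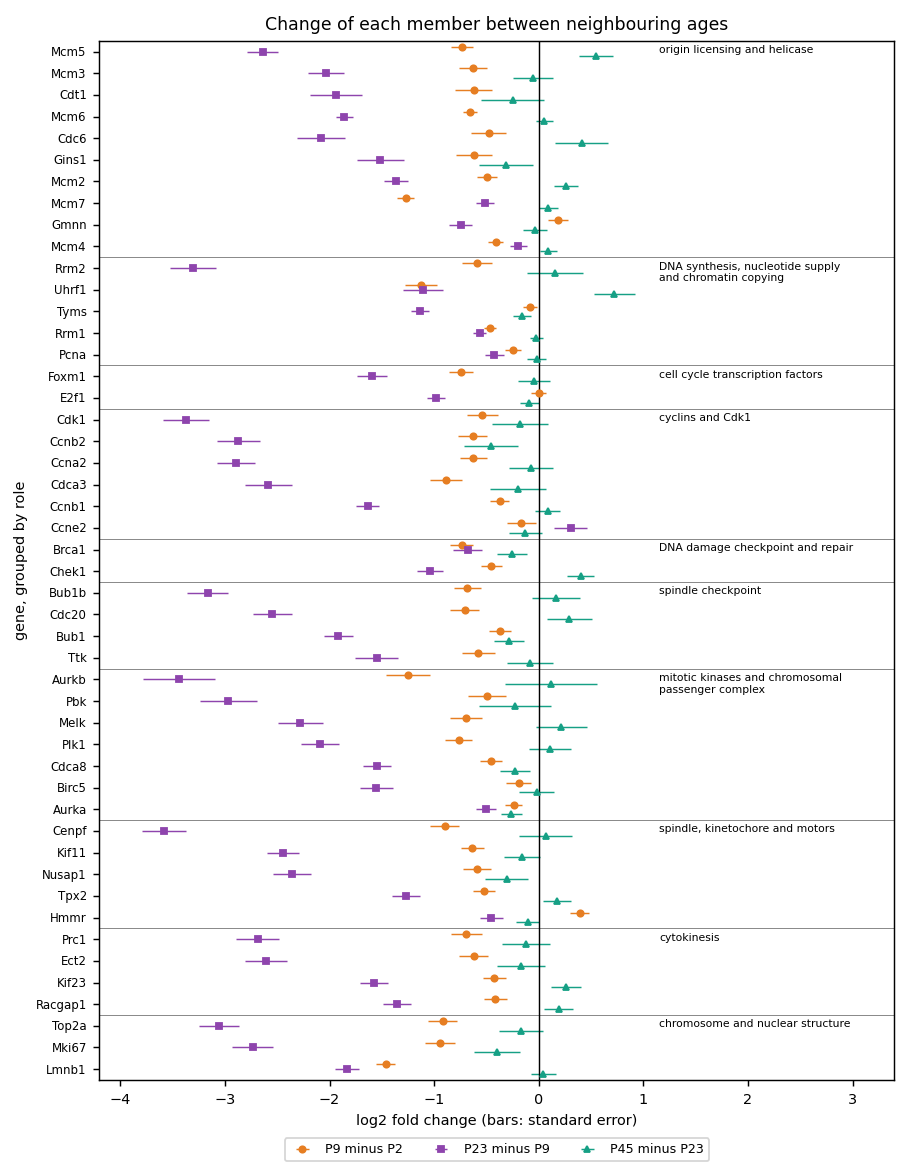
LFC of each member from P2 to P9 (circles), from P9 to P23 (squares), and from P23 to P45 (triangles), with bars for the standard error and genes grouped by role. The squares lie farthest below 0 for most members, with Cenpf at -3.58, and the triangles scatter around 0.

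Taken in each tissue alone, the median LFC of early over late was 2.16 in MEC LII, 2.03 in MEC LDeep, 1.95 in LEC LII, and 2.18 in LEC LDeep. The LFC of Mki67 was 3.31 in MEC LII, 3.29 in MEC LDeep, 3.56 in LEC LII, and 3.47 in LEC LDeep. The widest range was that of Cdt1, from 1.89 in LEC LII to 3.35 in LEC LDeep, with SEs of 0.32 and 0.37. Ccne2 differed in sign, with an LFC of -0.79 ± 0.21 (SE, adjusted p = 7.15e-04) in MEC LDeep and LFCs from -0.00 to 0.09 in the other 3 tissues. In MEC LDeep its values were 5.85, 5.37, 6.12, 2.48, and 3.90 CPM at P2 and 3.87, 5.27, 6.47, and 4.32 CPM at P9. They were 12.4, 8.16, and 7.18 CPM at P23 and 7.38, 9.26, 6.97, and 7.83 CPM at P45, so every late library was above every early one. The early value of 5.85 CPM came from MEC LDeep P2 replicate 1, where meningeal markers went against the layer label. These markers also did so in MEC LII P2 replicate 1, which held 11.1 CPM of Ccne2. The share of all genes that separated in this way within a tissue is not given. The age change of Ccne2 did not pass the test for a difference between the layers, at 0.41 ± 0.21 (SE, adjusted p = 0.265), or between the regions, at -0.48 ± 0.21 (SE, adjusted p = 0.22), and MEC LDeep was not tested against the other 3 tissues together.

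Other genes of the same processes were taken from lists that did not hold the members, also drawn up with earlier results of these data known. Of 41 tested further replication genes, 33 were higher at the early ages and 5 lower, with a median LFC of 0.76, against 40.6% and 41% of all genes. Mcm10, a helicase cofactor, had the largest LFC at 2.64 ± 0.13 (SE, adjusted p = 2.66e-25), and its median was 5.85 CPM at P2 and 0.746 CPM at P45. Dbf4, the activator of the Cdc7 kinase, followed at 2.34, and Pole, the catalytic subunit of DNA polymerase epsilon, at 2.16. Lower at the early ages were Clspn at -0.55, Rfc1 at -0.43, and Rpa1 at -0.39, which act in the replication checkpoint, in clamp loading, and in the binding of single-stranded DNA. Of 34 tested further mitosis genes, 33 were higher at the early ages, with a median LFC of 2.26. Knstrn, Kif2c, and Ube2c, of the kinetochore and the anaphase-promoting pathway, had LFCs of 3.44, 3.404, and 3.08. Cit, a kinase known from cytokinesis that also has a form in neurons, was lower, with an LFC of -1.74 ± 0.13 (SE, adjusted p = 5.65e-18) and medians of 31.5 CPM at P2 and 149 CPM at P45.

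Of 13 D cyclins, G1 kinases, phosphatases, and Myc genes, 9 were higher at the early ages and 3 lower, where 40.6% and 41% of all genes were, with a median LFC of 0.84. Myc, with an LFC of 2.94, and Mycn, with 2.59, both growth regulators, led the first set, and their medians went from 39.1 to 3.71 CPM and from 80.1 to 8.78 CPM between P2 and P45. Cdc25c, the phosphatase that activates Cdk1, had an LFC of 1.56, and Wee1, the kinase that restrains it, one of -1.33 ± 0.06 (SE, adjusted p = 1.92e-27). Ccnd3 and Ccne1 were also lower early, at -0.35 and -0.20, and Ccne1 is the other cyclin E gene besides the uncalled Ccne2. Of 12 tested Cdk inhibitors, Rb family members, repressor E2Fs, and Btg genes, 6 were higher at the early ages and 3 lower, close to and below these shares, with a median LFC of 0.26. Rbl1 (p107), Cdkn2c, and Cdkn1b (p27) were higher, at 1.47, 0.65, and 0.52, and E2f6, Btg2, and Rbl2 (p130) lower, at -0.48, -0.44, and -0.25.

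Markers of several cell types moved with age, and their part in the age difference of the members was not tested. At the early ages 40.6% of all genes were higher and 41% lower. All 7 markers of immature neurons were higher at the early ages, with a summed level of 5136 to 8028 CPM at P2 and 965 to 1354 CPM at P45. Of 6 neural progenitor genes tested, 3 were higher and 1 lower at the early ages, with sums of 168 to 462 CPM at P2 and 106 to 224 CPM at P45. The 7 oligodendrocyte precursor genes had sums of 272 to 555 CPM at P2 and 264 to 488 CPM at P45, with 3 higher and 2 lower at the early ages. All 6 oligodendrocyte genes were lower at the early ages, as were 5 of 7 astrocyte genes and 6 of 7 neuron genes, and the other 2 astrocyte genes and the other neuron gene were higher. Of 7 microglia genes 6 were lower and none higher at the early ages, of 7 endothelial and pericyte genes 3 were lower and 1 higher, and of 9 meningeal fibroblast genes none was called with age. The defining markers of oligodendrocyte precursors, astrocytes, and endothelium were at 0 in no library.

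LII was compared with LDeep to see whether these genes differ between the layers, and the answer depended on the normalization. With TMM factors and the 4 ages weighted equally, 22 members were higher in LII, where 23.5% of all genes were, and none was lower, where 30.5% of all genes were. At an unadjusted p under 0.05, 2 were lower. After quantile normalization (limma voom) 4 members were higher and 13 lower. The shares of all genes called after quantile normalization are not given, here or below, so its counts of members stand without that comparison. The median LFC of LII over LDeep was 0.16 with TMM and -0.08 after quantile normalization over the members, and -0.05 and -0.06 over all genes. Over 1543 genes with mean levels between the quartiles of the members, it was 0.13 with TMM and -0.14 after quantile normalization, close to the values of the members. No member had opposite calls in both. Mcm2, Mcm5, Cdc20, and Rrm1 were higher in LII in both, with LFCs under TMM of 0.58 ± 0.07 (SE, adjusted p = 2.49e-09) for Mcm2, 0.84 ± 0.13 (SE, adjusted p = 9.86e-08) for Cdc20, 0.58 for Mcm5, and 0.15 for Rrm1. Under quantile normalization these were 0.39, 0.51, 0.26, and 0.18. Aurkb at 0.84, Cdk1 at 0.82, and Prc1 at 0.66 were called higher in LII with TMM only, and after quantile normalization their LFCs were 0.27, 0.44, and 0.40. The plot of both normalizations shows the cloud of members shifted to lower values on the quantile axis at every age, most at P23.

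**Figure D4:**
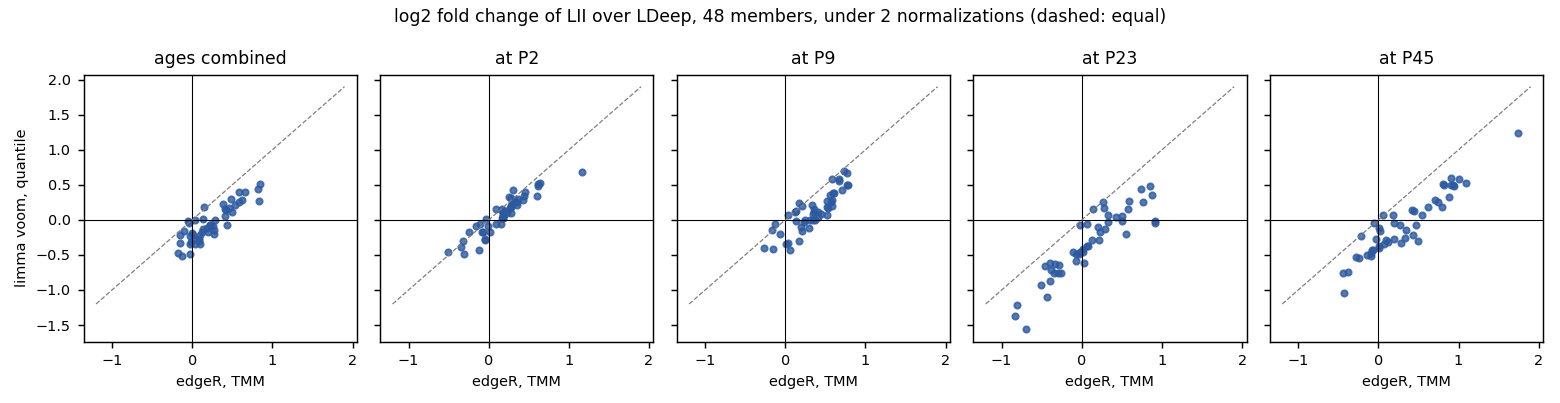
LFC of LII over LDeep for the 48 members with TMM normalization in edgeR (x axis) and after quantile normalization in limma voom (y axis), over all ages and at each age, with a dashed line where both are equal. Of the 48 points, 46 lie under the line over all ages, and the member median over all ages is 0.16 on the x axis and -0.08 on the y axis.

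The layer difference was then taken at each age. With TMM its median from P2 to P45 was 0.18, 0.35, 0.06, and 0.23 over the members. Over the genes of like mean level it was 0.07, 0.18, 0.15, and 0.14. After quantile normalization it was 0.11, 0.11, -0.33, and -0.13 over the members. Over the genes of like mean level it was then -0.10, -0.12, -0.13, and -0.13. At P2, 7 members were higher in LII, where 10.8% of all genes were, and 3 lower, where 8.48% were. With TMM these were Aurkb at 1.17, Cdc20 at 0.64, Prc1 at 0.62, Kif23 at 0.61, Melk at 0.60, Kif11 at 0.45, and Ccnb1 at 0.32, and, in the other direction, Mcm7 at -0.51, E2f1 at -0.34, and Tyms at -0.32. Aurkb and Melk were not called after quantile normalization and the other 8 were. Without MEC LII replicate 1 of P2, 4 members were higher, and the LFC was 0.47 for Aurkb and 0.30 for Prc1, with adjusted p of 0.0496 and 0.186 (edgeR). Without all 3 MEC libraries described above, 8 were higher and 3 lower. Leaving out all libraries of P2 replicate 2 left 2 higher.

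At P9, 17 members were higher in LII, where 16.7% of all genes were, and 1 lower, where 16.2% were. Cdc20 was at 0.78 ± 0.20 (SE, adjusted p = 0.00217), Mcm2 at 0.77 ± 0.14 (SE, adjusted p = 1.52e-05), Bub1b at 0.77, and Mki67 at 0.73, and all 4 were also called higher after quantile normalization, which left 8 higher and 2 lower. E2f1 was lower in LII in both, with an LFC of -0.27 under TMM. Leaving out P9 replicate 4 left 6 higher. The call of E2f1 was lost in DESeq2, with RLE size factors, with no filter, without MEC LII P2 replicate 1 or the 3 MEC libraries of P2, in 11 of the 16 fits that left out a replicate number, and in LEC alone, where its LFC was 0.04. For Mcm2 the values in LII were 26.9, 16.97, 24.6, and 19.1 CPM in MEC and 24.98, 22.5, 23.0, and 22.3 CPM in LEC. In LDeep they were 15.9, 11.8, 15.4, and 13.3 and 10.8, 13.4, 10.3, and 14.6 CPM. All 8 LII libraries of P9 lay above all 8 of LDeep for this gene. How many of all genes separated in this way is not given.

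At P23, 5 members were higher in LII, where 14.8% of all genes were, and 3 lower, where 11% were. None of the 5 (Mcm5 at 0.88, Cdc20 at 0.85, Mcm2 at 0.59, Mcm6 at 0.33, and Rrm1 at 0.26) was called after quantile normalization, which gave 0 higher and 8 lower, and none was left without P23 replicate 2. Birc5 at -0.84, Brca1 at -0.81, and Hmmr at -0.46 were lower in LII in both. At P45, 11 members were higher in LII with TMM, where 14.4% of all genes were, and none was lower, where 12% were. At an unadjusted p under 0.05, 2 were lower. Cdk1 had the largest LFC at 1.74 ± 0.36 (SE, adjusted p = 1.40e-04), followed by Cdc20 at 1.09 and Prc1 at 1.01. Its values in LII were 1.61, 1.28, 1.85, and 1.66 CPM in MEC and 2.02, 0.207, 2.73, and 1.97 CPM in LEC, and in LDeep 0.428, 0.213, 0.645, and 0.405 and 0.759, 0.998, 0.386, and 0 CPM. These are a few counts per library, and the layers overlapped through the second of the LEC LII values. After quantile normalization 1 member was higher at P45 (Mcm2, at 0.80 under TMM) and 7 lower, and leaving out P45 replicate 1 left 5 higher with TMM.

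Markers of other cells differed between the layers as well, and their part in the layer difference of the members was not tested. The shares of all genes called were 23.5% higher and 30.5% lower in LII. Of 9 meningeal fibroblast genes 8 were higher and 1 lower in LII, with median sums of 880 to 1083 CPM in LII and 70.0 to 172 CPM in LDeep over the ages. All 7 endothelial and pericyte genes, 6 of 7 astrocyte genes, and 5 of 7 microglia genes were higher in LII, and none of these lists had a lower gene. Of 6 neural progenitor genes 5 were higher in LII and 1 lower. Of 7 oligodendrocyte precursor genes 2 were higher and 4 lower. Of 6 oligodendrocyte genes 4 were lower, as were 4 of 7 neuron genes and 3 of 7 genes of immature neurons, and none of these was higher.

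Whether the layer difference changed with age was tested by the difference between the early and the late ages. For 3 members it was higher at the early ages, where 3.97% of all genes were called, and for 2 lower, where 4.83% were. Both counts, 6.25% and 4.17% of the members, were close to these shares. Without the 3 MEC P2 libraries described above, 6 were higher and 2 lower. It was higher early for Melk, at 0.94 ± 0.29 (SE, adjusted p = 0.0275), Brca1, at 0.67 ± 0.18 (SE, adjusted p = 0.0111), and Tpx2, at 0.56 ± 0.17 (SE, adjusted p = 0.0261). It was lower early for E2f1, at -0.62 ± 0.11 (SE, adjusted p = 1.04e-04), and Mcm7, at -0.38 ± 0.12 (SE, adjusted p = 0.0301). The call of E2f1 was kept after quantile normalization, in which 7 members were higher and 1 lower, and in all fits that left out a replicate number, while that of Mcm7 was lost in 10 of 16 such fits and after quantile normalization, where its change was -0.25. The call of Brca1 held in all 16 of these fits, that of Tpx2 was lost without P9 replicate 3 or P23 replicate 3, and that of Melk without P2 replicate 2, P9 replicate 4, P23 replicate 1 or 2, or P45 replicate 3. In LEC alone the change of E2f1 was -0.40 with an adjusted p of 0.224 (edgeR). E2f1 in MEC LII was 15.6, 13.2, 11.7, 14.4, and 12.7 CPM at P2 and 11.1, 9.35, 9.23, and 11.5 CPM at P45. In MEC LDeep it was 16.7, 14.4, 17.9, 17.6, and 17.2 CPM at P2 and 7.28, 4.47, 9.29, and 7.29 CPM at P45. The LFC of LII over LDeep of E2f1 was -0.34, -0.27, 0.20, and 0.42 from P2 to P45, with the value at P23 not called, and after quantile normalization it was -0.39, -0.40, -0.11, and 0.14, with only the first pair called. The plot by age shows, with TMM, values of E2f1 that go from below to above 0, values of Melk and Tpx2 that go the other way, and values of Cdc20 that stay above 0, which they also do after quantile normalization.

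**Figure D5:**
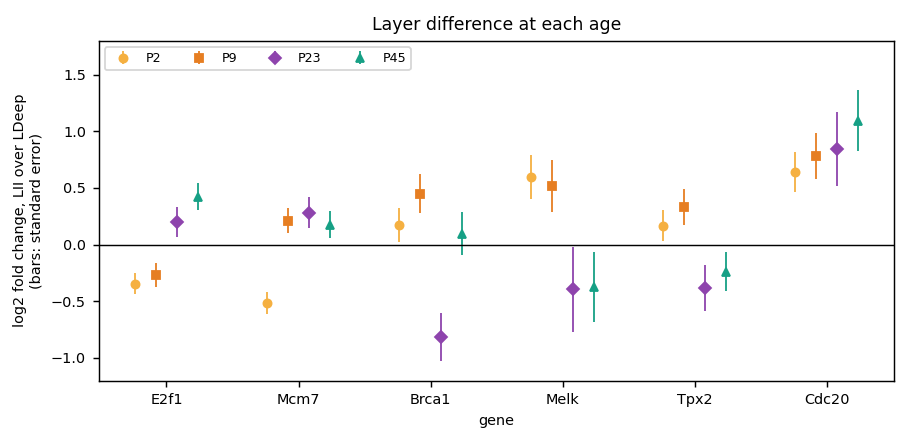
LFC of LII over LDeep at each age (TMM normalization, bars for the standard error) for the 5 members whose layer difference changed with age and for Cdc20. E2f1 goes from -0.34 at P2 to 0.42 at P45, while Cdc20 is at 0.64 to 1.09 throughout; after quantile normalization the values of P23 and P45 are lower, and the P23 and P45 calls of Cdc20 and the P45 call of E2f1 are lost.

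Few members differed between MEC and LEC. With all ages combined 2 were higher in MEC, where 8.87% of all genes were, and 1 was lower, where 6.53% were. The higher ones were E2f1, with an LFC of 0.26 ± 0.06 (SE, adjusted p = 5.64e-04), and Tyms, with 0.23 ± 0.05 (SE, adjusted p = 0.00174), and the lower one was Ccnb1, with -0.36 ± 0.07 (SE, adjusted p = 2.61e-04). Without MEC LII P2 replicate 1, 3 members were lower. At P2 none was called in either direction (edgeR), where 1.91% and 0.759% of all genes were, and 5 members were lower at an unadjusted p under 0.05. At P9, E2f1 was higher in MEC at 0.39 and none was lower, where 2.21% and 1.67% of all genes were called. At P23 none was called, where 2.01% and 1.56% were, with 2 higher and 1 lower at an unadjusted p under 0.05. At P45, E2f1 at 0.37 and Tyms at 0.46 were higher in MEC and none was lower, where 4.78% and 4.34% of all genes were called. Without P45 replicate 4 neither was called, at 0.31 and 0.38. The P45 call of E2f1 was also lost without P23 replicate 2 or P45 replicate 3, and its P9 call without P9 replicate 1, 3, or 4. E2f1 in LDeep at P9 was 25.1, 19.5, 18.4, and 23.9 CPM in MEC and 15.9, 14.5, 12.6, and 12.3 CPM in LEC, without overlap. How many of all genes separated between the regions in this way is not given. In LII at P9 it was 15.04, 13.0, 17.1, and 15.3 CPM in MEC and 13.4, 13.7, 14.3, and 13.4 CPM in LEC, and there the values of LEC lay within the range of MEC.

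The region difference did not pass the test for a change with age in any member (edgeR), where 2.3% of all genes were called higher and 2.08% lower at the early ages, and 5 members were lower at an unadjusted p under 0.05. The layer difference did not pass the test for a difference between MEC and LEC in any member either, where 0.942% and 0.303% of all genes were called, with 2 higher and 1 lower at an unadjusted p under 0.05. A missing call here does not show that the regions or layers are alike.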

How the data were processed

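The deposited files hold raw read pair counts per gene for 64 RNA-seq libraries made from ribosomal RNA-depleted total RNA with a stranded kit. Per the submitters' processing notes, the authors used bcl2fastq 1.8.4, Trimmomatic 0.33, STAR 2.4.0, and featureCounts of Subread 1.4.6-p1 on rn6. No count column was left unmapped (0). Groups came from the sample labels. Counts of 17260 genes were filtered by expression (filterByExpr), scaled with TMM factors, and fitted with 16 group means and no replicate term in edgeR 4.0.16 (R 4.3.3), with quasi-likelihood tests and Benjamini-Hochberg adjustment over 12521 genes. Tests were run on simulated data with known changes first. CPM values use library totals multiplied by the TMM factors, and values per kb use the exon length of the tables. Alternatives were DESeq2 1.42.0, limma 3.58.1 voom with quantile normalization, other size factors, no filter, each region alone, a replicate block, and leaving out libraries. Added after seeing the data were voom without quantile normalization, the comparison of both age steps, and the fits without MEC LDeep replicate 1 or the 3 MEC libraries of P2. Members and gene lists were chosen with earlier results of these data known. Genes were named by role group for the highest level per length, the largest and smallest age change, or a layer, region, or interaction call, and in the other pathway lists for the 3 largest changes in each direction with a mean of at least 1 CPM. Further members were named to complete the role groups.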

Additional observations from a re-analysis of the deposited data

Results flagged for a closer look

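In each group of 4 or 5 libraries the gap between the highest or lowest library and its nearest neighbor, as a share of the whole range on the log2 scale, was compared with Dixon's 95% critical value. Chance passes this limit in about 1 of 20 groups. It was passed in 24 of 576 groups of a member, which is no more than this rate. Of these, 4 were low values in MEC LDeep P2 replicate 4. Cdca8 was at 6.09 CPM there (gap 0.890), Cdk1 at 5.86 (gap 0.788), Gmnn at 3.16 (gap 0.756), and Birc5 at 3.16 (gap 0.725), where the other 4 libraries had at least 13.0, 13.7, 7.28, and 6.14 CPM. In LEC LII P45 replicate 2, Cdca3 was at 0 (gap 0.921), and Cdk1 (gap 0.841) and Ttk (gap 0.836) were at 0.207 CPM each, with the others at or above 1.01, 1.97, and 1.52 CPM. MEC LII P2 replicate 1 held the high values of Prc1 (99.9 CPM, gap 0.933) and Aurkb (101 CPM, gap 0.757).

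The other replicated groups with such a library had gaps of 0.918 for Mcm3, 0.837 for Mcm4, and 0.885 for Kif23 in MEC LDeep at P9. The gaps were 0.944 for Rrm2, 0.920 for Melk, and 0.865 for Cenpf in LEC LII at P9, and 0.855 for Cdk1 in MEC LII at P9. Mcm4 had a gap of 0.734 in LEC LII at P2 and of 0.895 in LEC LII at P45. At P45 the gaps were 0.902 for Pcna and 0.849 for Cdca8 in MEC LDeep and 0.833 for Bub1 in MEC LII. In LEC LDeep at P45 they were 0.899 for Cdc20, 0.882 for Ccne2, and 0.843 for Mki67, and replicate 4 had the lowest Ccne2 (2.52 CPM, others from 6.98) and the highest Mki67 (3.66 CPM, others to 1.87).

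The difference between LII and LDeep differed between the early and late ages, by a test of that difference, for Melk (0.94), Brca1 (0.67), Tpx2 (0.56), E2f1 (-0.62), and Mcm7 (-0.38).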

How the results depend on the processing

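The age calls changed little, and the layer calls followed the normalization. Counts are members called higher or lower. After voom with quantile normalization the layer calls were 4 higher and 13 lower with ages combined (22 and 0 in edgeR), 8 and 2 at P9, 0 and 8 for P23, then 1 and 7 for P45, the layer-by-age calls 7 and 1, the rise from P23 to P45 0, and region at P45 1 higher. Under it Bub1 (-0.0086), Aurka (-0.11), Foxm1 (-0.0733), Kif23 (-0.0707), and Cdt1 (-0.0688) turned sign between the layers, and E2f1 at P9 did in LEC alone (0.0382). Without quantile normalization voom gave 0 higher between layers at P23, 6 at P45, 1 for region at P45, 1 lower for layer by age, and 0 rising from P23 to P45. DESeq2 gave 1 rising from P23 to P45, 0 lower between layers at P9, and 5 higher for layer by age. RLE factors gave 0 lower between layers at P9, 2 lower for region, and 6 higher for layer by age. With no filter 1 rose from P23 to P45, 0 were lower between layers at P9, 2 were higher at P23, and 1 was lower for layer by age. MEC alone gave 1 lower at the early ages (Ccne2), 2 rising from P2 to P9, and 0 from P23 to P45. Its layer calls were 12 higher combined, 2 and 0 at P2, 2 higher at P9, 0 and 1 at P23, and 7 higher at P45, with 0 and 1 for layer by age. LEC alone gave 0 rising from P2 to P9 and 0 from P23 to P45. Its layer calls were 2 higher at P2, 0 lower at P9, 0 and 0 at P23, and 5 higher at P45, with 0 and 0 for layer by age. Without MEC LII P2 replicate 1, 4 were higher between layers at P2, 0 lower at P9, 3 lower for region, and 1 higher for region at P23. Without MEC LDeep P2 replicate 1, layer by age had 6 higher. Without the 3 MEC P2 libraries, 1 was lower at the early ages (Ccne2), and 2 rose from P2 to P9. In that fit 0 were lower between layers at P9, 3 lower for region, 1 higher for region at P23, and 6 higher for layer by age. Summing the 4 libraries of a replicate number gave 1 rising from P9 to P23 (Ccne2) and 0 from P23 to P45. With replicate numbers left out in turn, higher calls ran from 47 to 47 for age, 1 to 2 for P2 to P9, 0 to 3 for P23 to P45, 17 to 22, 2 to 8, 6 to 22, 0 to 5, and 5 to 11 for layer with ages combined and then by age, 0 to 1, 0 to 1, and 0 to 2 for region at P9, P23, and P45, and 2 to 6 for layer by age. Lower calls ran from 41 to 43 for P2 to P9, 46 to 47 for P9 to P23, 37 to 40 for the comparison of both steps, 0 to 2, 1 to 3, 0 to 1, 1 to 4, and 0 to 2 for layer in the same order, 1 to 3 for region, 0 to 1 for region at P45 and for region by age, and 1 to 2 for layer by age. Of the values of single members, 6583 kept direction and call, 392 lost the call, and 6 turned.

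For each library, the deviation of the log2 CPM of every tested gene from the mean of its group was taken. These deviations, not the levels themselves, were correlated across genes between libraries of different tissues of the same age. Pairs with the same replicate number correlated at 0.134 on average over 96 pairs (lowest -0.259, 55 above 0.1), and pairs with other numbers at -0.043 over 300 pairs. The labels do not say that a number marks an animal, and same-numbered pairs besides these 55 did not exceed 0.1. The numbers were therefore not taken as a pairing. Same-numbered libraries were still more alike on average, so they may not be independent, and the age p-values may be too small. In 54 of the 96 pairs, the first library correlated best with its own number among the 3 to 5 libraries of the other tissue at that age. With a replicate block, layer calls were 22 and 1 combined, 8 and 4 at P2, 20 and 1 for P9, 7 and 4 for P23, then 12 and 0 for P45, region calls 2 and 2 combined, 1 and 0 at P23, and 2 and 1 at P45, and layer by age 4 and 2. The least abundant members had a few counts per library at the late ages, which limits their layer and region differences there.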
